A study of Mus musculus with 9 samples.

Results

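The 9 ligands of the TNF superfamily described here are TNF (*Tnf*), the lymphotoxins (*Lta* and *Ltb*), TRAIL (*Tnfsf10*), Fas ligand (*Fasl*), BAFF (*Tnfsf13b*), APRIL (*Tnfsf13*), LIGHT (*Tnfsf14*) and TL1A (*Tnfsf15*). They were taken by gene symbol from an expression table of 52550 genes, in which each symbol had 1 entry. The table belonged to mouse splenic pDCs of the C57BL/6 strain, sorted as CD11c-intermediate SiglecH+ PDCA1+ cells and cultured with R848, a TLR7/-8 ligand, for 12 hours at 10 μg/mL. The mice were 10 to 12 weeks old and carried G/G (WT), G/A or A/A alleles of *Ncf1*, where the A allele is a germline knockin that replaces an arginine of the NOX2 subunit with a histidine in every cell type. Of 9 samples, 3 for each genotype, A/A replicate 1 was the only library with values to analyse here, and the remaining 8 were not analysed here. No difference between genotypes, no effect of R848 and no replicate error could therefore be computed, and no unstimulated sample was used here.

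TNF superfamily ligands are mostly trimeric membrane proteins, and several are shed by proteases. Receptors with a death domain, such as TNFR1, Fas and the TRAIL receptor, can lead to caspase activation. Many receptors without one recruit TRAF adaptors and activate NF-κB, as TNFR1 also can. BAFF and APRIL sustain B cells and plasma cells, and pDCs are known to express TRAIL after TLR7 or TLR9 ligation.

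Each value above 0 in the library was a whole multiple of 1.19 within 0.01 of a step, so dividing by that step gave 31408298 count units over 17664 genes. A unit need not be a single read. Among the 1726 protein-coding genes with 1 to 40 units, 34.8% of the values were multiples of 4, against 25% for an even spread. Levels are given as CPM (units per 1000000 units on all genes) and, for any comparison between genes, as TPM (units per kilobase of annotated exon, scaled to a sum of 1000000). Wilson 95% confidence intervals take each unit as an independent count and cover counting error only. Taking 4 units as 1 count makes them about 2 times as wide. Of the 21819 protein-coding genes, 9618 were listed at 0, including 13 of the 13 encoded by the mitochondrial genome, and only 93 had 1 or 2 units, fewer than the 200 with 4 or 5. A gene without a value is therefore called listed at 0, with no upper limit and no fold against it.

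The library carried the transcripts by which pDCs are recognised. All 11 pDC markers had a value, against 55.9% of all protein-coding genes. The markers had a median of 251 TPM against 9.96 TPM over the 12201 protein-coding genes with a value. The highest were *Ly6d* at 6001 TPM, *Bst2*, which encodes PDCA1, at 4774 TPM and *Spib* at 2076 TPM, and the lowest was *Tcf4* at 34.0 TPM. In count units, which are not corrected for length, *Irf8* was the highest with 93189 and *Klk1* the lowest with 1452. *Tcf4* had 11239 units. According to the methods the mice were female, but the Y-linked genes *Ddx3y*, *Eif2s3y*, *Kdm5d* and *Uty* had 102, 86.1, 27.0 and 19.0 CPM. These Y-linked values go against the stated sex, which the library's own labels do not give. *Xist*, an X-linked transcript of female cells, was listed at 0.

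Of the 9 ligands, 7 had a value, and all 7 were above the floor of 3 units (0.0955 CPM). Of all protein-coding genes, 55.5% were. The 7 ligands with a value had a median of 21.9 TPM, and their median percentile by TPM among protein-coding genes with a value was 66.8. *Lta* was the highest and *Tnf* came next, followed by *Tnfsf10*, *Ltb* and *Tnfsf15*. *Tnfsf14* and *Tnfsf13* were the lowest with a value, and *Fasl* and *Tnfsf13b* were listed at 0. *Lta* held 54.3% of the summed TPM of the 9 ligands, *Tnf* 27.5% and *Tnfsf10* 9.61%. In count units, which are not corrected for length, *Lta* held 39.5% and *Tnfsf10*, with the longer transcript, 26.6%.

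**Figure D1:**
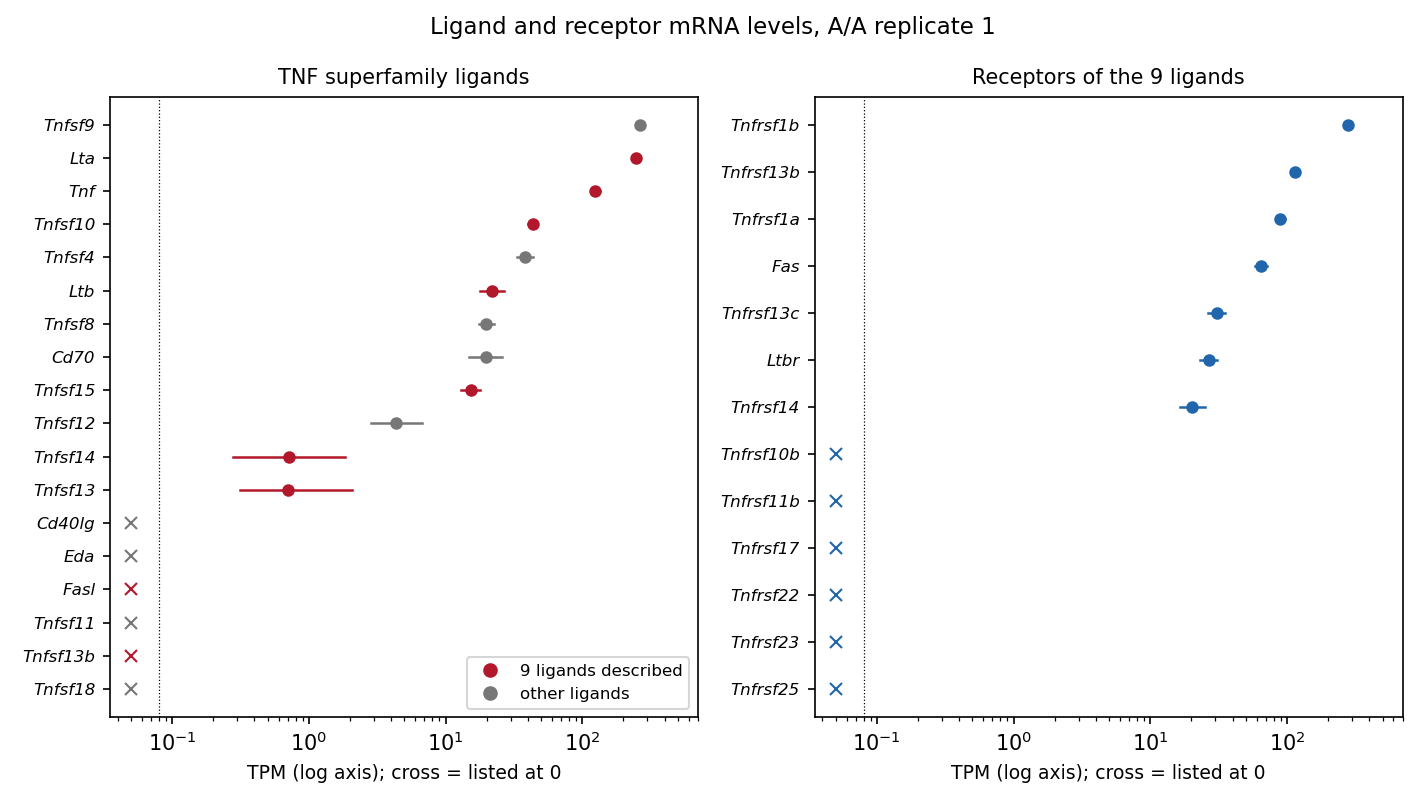
TPM on a log axis for the 18 ligands of the TNF superfamily (left, the 9 described in red and the others in grey) and for 13 receptors of the 9 ligands (right) in A/A replicate 1. Points are levels and lines are Wilson 95% confidence intervals with 4 units taken as 1 count. Crosses left of the dotted line are genes listed at 0. *Tnfsf9* and *Lta* lead the ligands at 264 and 246 TPM. Of the 13 receptors, 6 are listed at 0, as are 9618 of the 21819 protein-coding genes.

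*Lta*, *Tnf* and *Ltb* lie side by side in the major histocompatibility complex. *Lta* encodes lymphotoxin α, which is secreted as a homotrimer that binds the TNF receptors or is held at the membrane by lymphotoxin β. *Lta* (ENSMUSG00000024402.5, GRCm38 chromosome 17, 35203165 to 35205351, minus strand) had 4108 units, or 131 CPM, and its level per length was 246 TPM (95% CI, 239 to 254), at percentile 95.9. *Tnf*, the inflammatory cytokine (ENSMUSG00000024401.14, 35199381 to 35202007, minus strand), had 2467 units and 125 TPM (95% CI, 119.8 to 129.7), at percentile 91.6. The TPM of *Lta* was 1.97 times that of *Tnf* (95% CI, 1.88 to 2.07 by counting error). *Ltb*, whose product anchors lymphotoxin α and signals through LTβR (ENSMUSG00000024399.5, 35194439 to 35196320, plus strand), had 400 units and 21.9 TPM (95% CI, 19.8 to 24.1), at percentile 66.8. With coding bases as the length, *Ltb* was at 13.5 TPM. By exon length, the TPM of its partner *Lta* was 11.3 times that of *Ltb* (95% CI, 10.2 to 12.5).

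The 3 genes span 10913 bp, with 3060 bp between *Ltb* and *Tnf* and 1157 bp between *Tnf* and *Lta*. None of them shared exon bases with another annotated gene, and none of their 50-base transcript windows occurred in a transcript of another gene. The microRNA genes *Mir6974*, inside the span of *Lta*, and *Mir6973a*, inside that of *Ltb*, had 33 and 5 units and overlapped no exon of either ligand.

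**Figure D2:**
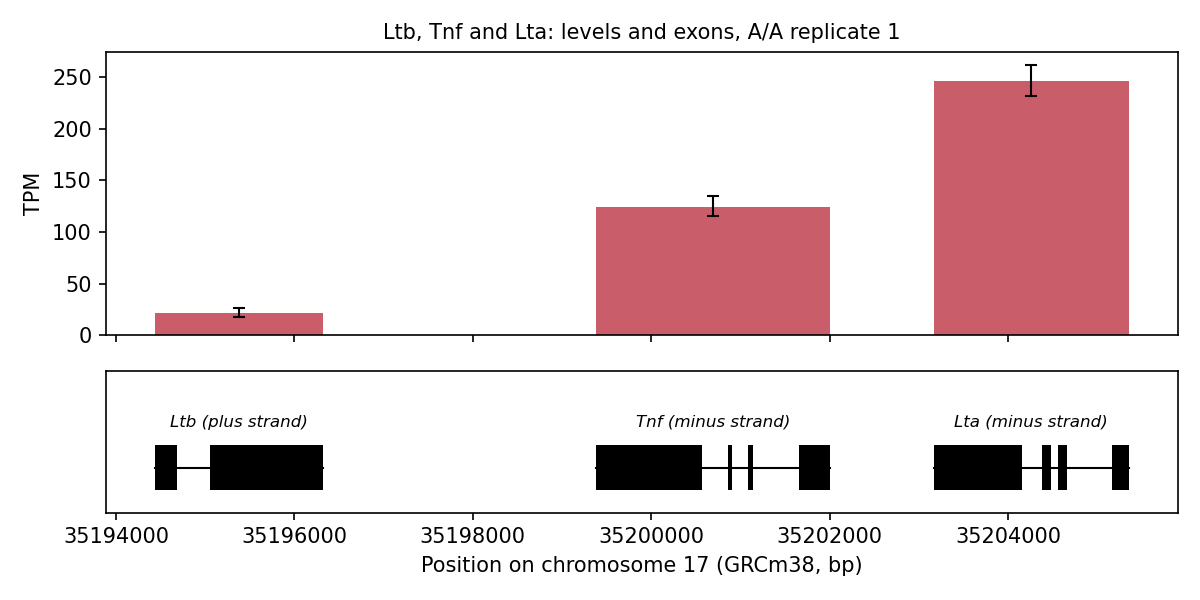
Levels in TPM (upper panel, bars as wide as each gene, with Wilson 95% confidence intervals taking 4 units as 1 count) and annotated exons (lower panel, black boxes) of *Ltb*, *Tnf* and *Lta* along chromosome 17 of GRCm38 in A/A replicate 1. The TPM increases along the cluster from *Ltb* at 21.9 through *Tnf* at 125 to *Lta* at 246.

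Promoter windows of RefSeq (GRCm38.p6, 250 bases before to 50 after each start) were found for 9 of the 9 ligands, 10 windows in all since *Tnfsf13b* had 2 starts. Both strands were searched for the TATA box TATAAA, the consensus of the interferon-stimulated response element, the AP-1 site TGANTCA and the NF-κB consensus, which occur in 13.6%, 3.44%, 7.81% and 8.46% of all 32851 promoters. TATAAA occurred in the windows of *Tnf* and *Lta*, and the NF-κB consensus occurred in that of *Ltb*, on the strand opposite to the gene. The 60 bases around each match are printed 5′ to 3′ on the strand of the gene for these 3 neighbouring genes, and capitals mark the match.
*Tnf*, chr17:35202008-35202067, minus strand, match 29 bases before the start: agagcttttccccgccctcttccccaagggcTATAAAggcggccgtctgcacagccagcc
*Lta*, chr17:35205484-35205543, minus strand, match 167 bases before the start: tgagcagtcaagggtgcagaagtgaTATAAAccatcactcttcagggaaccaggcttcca
*Ltb*, chr17:35194379-35194438, plus strand, match 87 bases before the RefSeq start, which lies inside the gene as given above: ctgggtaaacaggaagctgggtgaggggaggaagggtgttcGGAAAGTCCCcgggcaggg
Of the other ligands, AP-1 letters occurred in the windows of *Tnfsf13*, *Tnfsf14* and *Tnfsf13b*, and the interferon-stimulated response element in 1 of the 2 windows of *Tnfsf13b*, whose gene was listed at 0. The matches of *Tnfsf13* and *Tnfsf13b* lay within annotated exons. The windows of *Tnfsf10*, *Fasl* and *Tnfsf15* held none of the 4 motifs. A match is a description of letters only, and binding was not measured here. A link between these letters and the levels was not tested.

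Of the death ligands, *Tnfsf10* had a value and *Fasl* did not. *Tnfsf10* encodes TRAIL, which triggers apoptosis through its death receptor. It lies on chromosome 3 (ENSMUSG00000039304.11, 27317028 to 27342427, plus strand) and had 2767 units, or 88.1 CPM, more than *Tnf*. Over 5266 exon bases this came to 43.5 TPM (95% CI, 41.9 to 45.2), at percentile 79.3, so that *Tnf* was 2.86 times *Tnfsf10* by TPM (95% CI, 2.71 to 3.02). Only 927 of these bases are coding. Per coding base, *Tnfsf10* was at 92.3 TPM and the ratio of *Tnf* to *Tnfsf10* was 1.17. *Fasl*, the ligand of Fas in cytotoxic lymphocytes (ENSMUSG00000000817.10, chromosome 1, 161780689 to 161788495, minus strand), was listed at 0.

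Of the B-cell ligands, *Tnfsf13b*, which encodes BAFF, was listed at 0 (ENSMUSG00000031497.9, chromosome 8, 10006467 to 10039072, plus strand). *Tnfsf13*, which encodes APRIL (ENSMUSG00000089669.7, chromosome 11, 69682846 to 69685784, minus strand), had 14 units, or 0.708 TPM (95% CI, 0.422 to 1.19), at percentile 12.7. Of its 1637 exon bases, 983 are shared on the same strand with *Tnfsfm13*, a readthrough gene that had 72 units, and 13.5% lie opposite exons of *Tnfsf13os*, listed at 0. The use of strand in counting is not given in the sources used here, and units of *Tnfsf13* and *Tnfsfm13* cannot be told apart over these bases.

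The last pair of ligands act largely on T cells. *Tnfsf15*, which encodes TL1A (ENSMUSG00000050395.8, chromosome 4, 63727084 to 63745113, minus strand), had 618 units, or 15.3 TPM (95% CI, 14.1 to 16.5), at percentile 59.4. *Ltb* was 1.43 times *Tnfsf15* by TPM (95% CI, 1.26 to 1.62), but the order turned when coding bases were used as the length, with *Tnfsf15* at 23.6 TPM and *Ltb* at 0.571 times *Tnfsf15*. *Tnfsf14*, which encodes LIGHT (ENSMUSG00000005824.6, chromosome 17, 57189492 to 57194189, minus strand), had 16 units, or 0.717 TPM (95% CI, 0.442 to 1.17), at percentile 12.9. *Tnfsf14* and *Tnfsf13* could not be ordered at this depth, with a ratio of TPM of 1.01 (95% CI, 0.494 to 2.08).

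**Figure D3:**
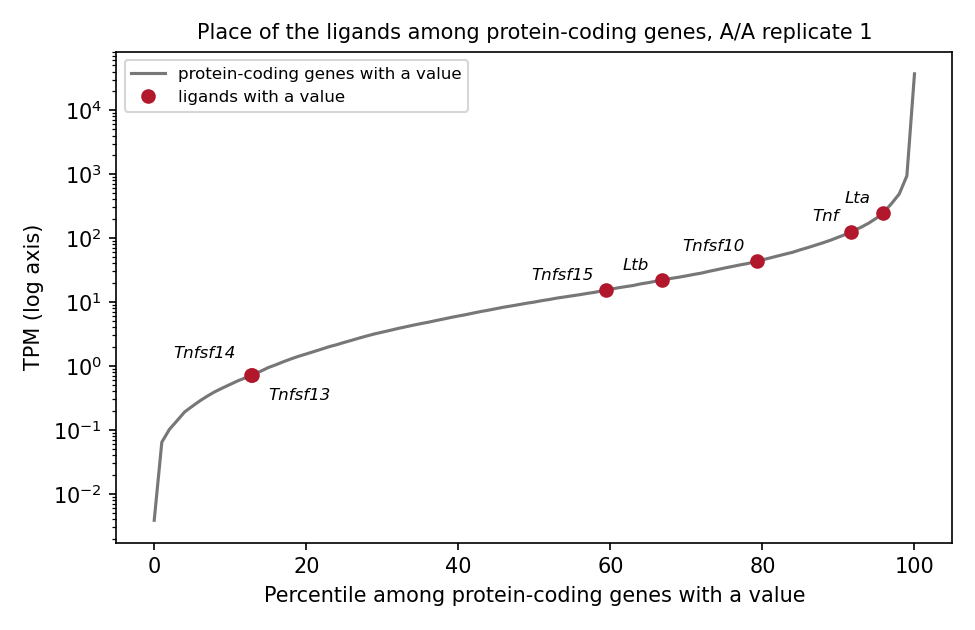
TPM on a log axis against the percentile among the 12201 protein-coding genes with a value in A/A replicate 1. The grey line is all these genes and the red points are the 7 ligands with a value, from *Tnfsf13* and *Tnfsf14* at percentiles 12.7 and 12.9 to *Lta* at 95.9.

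Of the other 9 ligands of the superfamily, 5 had a value. The share over all protein-coding genes was 55.9%, so this count was not read as particular to these ligands. *Tnfsf9*, which encodes 4-1BBL, a costimulator of T cells, had 264 TPM (95% CI, 256 to 272), and *Tnfsf4*, which encodes OX40L, had 38.3 TPM. *Tnfsf8* (CD30L) had 19.8 TPM and *Cd70*, the ligand of CD27, had 19.7 TPM, whereas *Tnfsf12* (TWEAK) was the lowest at 4.37 TPM. *Cd40lg*, *Tnfsf11*, *Tnfsf18* and *Eda* were listed at 0. Over all 18 ligands the TPM summed to 799, of which the 9 described here held 56.7%. The TPM of *Tnfsf9* was 1.07 times that of *Lta*, but their intervals overlapped with 4 units as 1 count, and with coding bases as the length, chosen for this pair after seeing the data, the order turned, with *Tnfsf9* at 0.654 times *Lta*.

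Of 13 receptors of these ligands, 7 had a value, with a median of 64.5 TPM among them. Over all protein-coding genes, the share with a value was 55.9%, so this count was not read as particular to the receptors. *Tnfrsf1b*, which encodes TNFR2 and lacks a death domain, was the highest at 281 TPM, and *Tnfrsf1a*, which encodes the death-domain receptor TNFR1, had 89.3 TPM. *Ltbr*, the receptor of lymphotoxin β, had 26.7 TPM. *Fas* had 64.5 TPM, and its ligand was listed at 0. *Tnfrsf10b*, the TRAIL death receptor of the mouse, was listed at 0, as were *Tnfrsf22* and *Tnfrsf23*, which encode decoy receptors of TRAIL. *Tnfrsf13b*, which encodes TACI, a receptor of BAFF and APRIL, had 114 TPM, and *Tnfrsf13c*, the BAFF receptor, had 30.6 TPM. *Tnfrsf17* (BCMA) was listed at 0. *Tnfrsf14*, the receptor of LIGHT, was the lowest with a value at 20.3 TPM, and *Tnfrsf25*, the receptor of TL1A, and the soluble decoy *Tnfrsf11b* were listed at 0. Since a gene listed at 0 has no upper limit here, these zeros were not read as a receptor or ligand being absent. Of 15 other receptors of the superfamily, 10 had a value, led by *Cd40* at 335 TPM, *Tnfrsf4* at 80.1 TPM and *Relt* at 43.9 TPM, with *Tnfrsf8* the lowest at 0.0958 TPM.

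Genes that process the ligands had a value in 7 of 8 cases, against 55.9% of all protein-coding genes. *Sppl2a*, an intramembrane protease that cleaves TNF and Fas ligand stubs, had 132 TPM. *Rhbdf2*, which escorts the TNF sheddase, had 71.7 TPM and *Adam17*, the sheddase itself, had 66.7 TPM. The lowest with a value was *Rhbdf1* at 3.84 TPM, and *Timp3*, an inhibitor of ADAM17, was listed at 0. Of the 12 genes that control stability or translation of the *Tnf* mRNA, all had a value, with a median of 5.86 TPM and a wide range. *Zfp36*, which encodes tristetraprolin, a decay factor of the *Tnf* mRNA, had 455 TPM, its relative *Zfp36l1* 285 TPM and *Mapkapk2*, a kinase of tristetraprolin, 46.1 TPM. *Tial1* was the lowest at 1.37 TPM, although in count units it had 114 and *Khsrp* 86.

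All 24 genes of death receptor signalling had a value, against 55.9% of all protein-coding genes. The 24 had a median of 68.7 TPM and a median percentile of 85.4. The highest were *Traf1*, a TRAF adaptor, at 214 TPM and *Birc3*, an inhibitor of apoptosis, at 189 TPM. *Casp8*, the initiator caspase, had 114 TPM and *Cflar*, its inhibitor c-FLIP, had 91.1 TPM. This order rests on exon length, since in count units *Cflar* had 13929 and *Casp8* 3992. *Fadd*, the adaptor that recruits caspase-8, had 6.30 TPM. *Ripk3* and *Mlkl*, which carry out necroptosis, had 17.2 and 106 TPM. *Xiap* was the lowest at 4.89 TPM, although in count units it had 559 and *Fadd* 297.

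Markers of other cells were measured because lymphocytes also transcribe *Lta*, *Ltb* and *Fasl*. For the counts that follow, the share of all protein-coding genes with a value was 55.9%. Of 12 T cell markers, 6 had a value and summed to 267 TPM, of which *Cd8a*, known in a subset of mouse pDCs, gave 237 TPM. *Cd28* had 14.7 TPM, *Cd4* 12.5 TPM and *Cd5*, the lowest with a value, 0.202 TPM. *Trac*, a T cell receptor gene, had 1.42 TPM and *Cd247* had 0.606 TPM. *Cd3e*, *Cd3d*, *Cd3g*, *Cd6*, *Bcl11b* and *Trbc2* were listed at 0. Of 9 NK cell markers, 3 had a value and summed to 96.4 TPM, led by *Klrk1* at 92.8 TPM, with *Nkg7* at 2.54 TPM and *Tbx21* at 1.07 TPM. *Ncr1*, *Klrb1c*, *Klra8*, *Gzma*, *Prf1* and *Eomes* were listed at 0. Of 8 B cell markers, 5 had a value and summed to 2735 TPM, of which *Ighm* gave 2722 TPM. Without *Ighm* the sum was 13.3 TPM, with *Cd79b* at 6.71 TPM, *Cd79a* at 4.15 TPM and *Pax5*, *Cr2* and *Fcer2a* listed at 0. Of 8 macrophage and monocyte markers, 7 had a value and summed to 2212 TPM, led by *Ly6c2*, which pDCs also transcribe, at 1130 TPM. *Cd68* had 616 TPM, *Lyz2* 409.9 TPM and *Csf1r* 22.1 TPM, with *Mertk* the lowest at 1.03 TPM and *Vcan* listed at 0. Of 7 neutrophil markers, 4 had a value and summed to 119 TPM, led by *S100a8* at 55.0 TPM, *S100a9* at 47.9 TPM and *Csf3r* at 15.4 TPM, with *Cxcr2* the lowest at 0.978 TPM and *Ly6g*, *Retnlg* and *Mmp8* listed at 0. Of 8 markers of conventional dendritic cells, 7 had a value and summed to 2027 TPM, led by *Ccl22* at 1507 TPM, *Fscn1* at 369.6 TPM and *Clec9a* at 58.4 TPM, with *Xcr1* the lowest at 1.00 TPM and *Cd209a* listed at 0. Between these, *Flt3* had 57.0 TPM, *Zbtb46* 32.3 TPM and *Clec10a* 2.11 TPM. The part of other cells in the level of a ligand was not tested, and in a bulk library the number of cells of a type and the RNA per cell cannot be told apart.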

How the data were processed

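Sorted splenic pDCs were profiled by mRNA sequencing with 150 bp paired-end reads. The authors deposited 1 signal value per gene and named no unit, and all values above 0 were whole multiples of 1 step. Processing notes of the submitters name HISAT2, StringTie and the builds mm8 and mm10, without roles or versions. Coordinates in the table are those of GRCm38. The counting tool, annotation and use of strand are not given in the sources used here.

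Here each value was divided by the step of 1.19 to give count units, after the recovery of units had been tested on simulated data. Identifiers without versions were matched to GENCODE M21 for 99.7% of genes, and 95.2% of these had identical coordinates. Lengths were the union of annotated exons, since the length in the table is a genomic span. Log2 levels, used only among the alternatives, had a pseudocount of 1. Ratios of 2 genes have intervals from the logarithm of the ratio of counts. Percentiles count ties by their midpoint. The planned design took the units as reads. Comparisons of genotypes were not run.

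The 9 ligands and the gene lists were chosen with earlier results of these data known. The rule for named genes took the 9 ligands, the 3 highest and the lowest of each list, and allowed any list gene above the floor; some genes under this rule are not reported here. Genes listed at 0, the Y-linked genes and the genes overlapping or inside a ligand gene were named after their values were seen. Alternatives were other lengths, protein-coding genes as the denominator, a pseudocount of 0.1, a floor of 10 units, other sets of ranked genes and, chosen after seeing the data, 4 units as 1 count. Computations used Python 3.11.15, numpy 2.4.6, scipy 1.17.1, pandas 2.3.3 and matplotlib 3.10.9.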

Additional observations from a re-analysis of the deposited data

How the results depend on the processing

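All values rest on 1 library, so no spread between mice is known, and the ligands with 14 and 16 units could not be ordered. Of the 7 ligands with a value, 5 kept their place in the order by TPM with the longest transcript as the length, 5 with coding bases and 7 with protein-coding genes as the denominator. The TPM itself left its 95% CI for 5 of 7 ligands under each of these choices, by factors of 0.801 to 0.857 with the longest transcript, 0.617 to 2.12 with coding bases and 1.18 with protein-coding genes only. With coding bases, *Ltb* was at 0.571 times *Tnfsf15* and *Tnfsf9* at 0.654 times *Lta*. Other lengths were tried only for the 7 ligands with a value and *Tnfsf9*, so places within the other lists hold for exon length. A pseudocount of 0.1 moved the log2 level of 2 of 7 ligands beyond its interval. With a floor of 10 units, 7 ligands passed, and over all 18 ligands of the superfamily 12 passed. The median percentile was 77.3 over all protein-coding genes with the ligands at 0 included, and 65.1 among genes with at least 10 units. *Lta* held 39.5% of the ligands' units without a length correction. With 4 units as 1 count, an alternative chosen after seeing the data, the lower bounds of the 6 ratios of neighbours among the 7 ligands stayed on the same side of 1, and that of *Ltb* over *Tnfsf15* was 1.11, whereas that of *Tnfsf9* over *Lta* crossed to 0.984. No paired analysis was possible because only 1 library was analysed.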

Other observations

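The surroundings of the *Tnf* cluster were looked at after the values were seen. Within 50 kb of *Ltb*, *Tnf* and *Lta* on either side, all 11 protein-coding genes had a value, against 55.9% of all protein-coding genes. *Lst1*, a myeloid transcript that lies beside *Ltb*, had the highest level per length, 321 TPM, above *Lta* at 246 TPM. This place rests on 415 exon bases. Without a length correction *Lst1* had 51.2 CPM, below *Lta* at 131, *Ddx39b* at 126 and *Tnf* at 78.5 CPM. *Aif1*, which encodes the macrophage protein IBA1, had 58.9 TPM and the helicase gene *Ddx39b* had 86.6 TPM. *Nfkbil1*, the next gene beyond *Lta*, had 15.2 TPM. *Atp6v1g2*, which partly overlaps *Nfkbil1* on the opposite strand, was the lowest of the 11 at 0.594 TPM. On the side of *Ltb*, *Bag6* and *Prrc2a* had 3.77 and 4.27 TPM.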
